A study of Mus musculus with 6 samples.

Results

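The 10 genes described here encode the transcription factors and cofactors that direct erythroid development, namely Gata1, Gata2, Klf1, Tal1, Zfpm1, Nfe2, Lmo2, Ldb1, Bcl11a and Myb. They were chosen by name, as the non-control probes of an Agilent whole mouse genome array that carry one of these 10 symbols, which gave 13 of the 55681 probes on the array. RNA came from CD71highTer119+ erythroblasts sorted from BM on day 4 after 1 injection of phenylhydrazine (PHZ), a drug that lyses red cells and thereby forces the marrow to replace them. The groups were 3 P38α+/- mice (Mx1-Cre with a floxed and a wild-type P38α allele) and 3 P38α-/- mice (Mx1-Cre with both alleles floxed). All 6 mice carried Mx1-Cre, an interferon-driven Cre that acts in hematopoietic cells and is not erythroid-specific. All were given 3 injections of PolyIC from 6 to 8 weeks of age and rested for 6 weeks before PHZ. Arrays of mice with an intact P38α gene, or without PHZ, were not analysed here.

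Erythroid fate is set by a small network of DNA-binding proteins. GATA2 and MYB act in progenitors, and GATA1 then displaces GATA2 from shared sites, which is known as the GATA switch, while MYB is shut off as cells mature. GATA1 works with its cofactor FOG1, the product of Zfpm1, and in a complex with TAL1, LMO2 and LDB1, where LMO2 and LDB1 bridge DNA-binding partners and bring enhancers to promoters. KLF1 switches on adult globin and red cell membrane genes, NFE2 is the larger subunit of a factor that acts at the globin locus control region, and BCL11A represses embryonic and fetal-type globin genes. In the sense used below, Gata2 and Myb are early factors, Gata1, Klf1, Zfpm1 and Nfe2 are late factors, and Tal1, Lmo2, Ldb1 and Bcl11a are complex and switch factors.

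GATA1 acts on the Klf1 gene and on its own, and KLF factors bind CACC-type sites near erythroid promoters, so the DNA upstream of the start sites of the early and late factors that carry the comparison is shown first. Each run is the 250 bases before the annotated start, 5′ to 3′ on the gene's strand, from RefSeq on GRCm38.p6, with capitals on matches to a GATA motif (the letters AGATAA, also with a T in first or a G in last place) or to the CACC-type motif that KLF factors recognise (CCNCNCCC), both searched on both strands. The windows are chrX:7967911-7968160 on the minus strand for Gata1, chr8:84901732-84901981 on the plus strand for Klf1 and chr10:21160985-21161234 on the minus strand for Myb.
Gata1: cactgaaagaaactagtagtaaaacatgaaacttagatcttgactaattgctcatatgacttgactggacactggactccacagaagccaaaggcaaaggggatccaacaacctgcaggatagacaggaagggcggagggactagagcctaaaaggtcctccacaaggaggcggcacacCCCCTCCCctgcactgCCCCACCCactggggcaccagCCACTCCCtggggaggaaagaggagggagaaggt
Klf1: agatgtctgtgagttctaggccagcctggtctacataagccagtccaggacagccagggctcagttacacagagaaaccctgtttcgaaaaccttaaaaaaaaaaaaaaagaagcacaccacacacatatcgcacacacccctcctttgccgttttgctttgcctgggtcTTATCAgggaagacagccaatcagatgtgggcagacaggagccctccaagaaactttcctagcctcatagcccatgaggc
Myb: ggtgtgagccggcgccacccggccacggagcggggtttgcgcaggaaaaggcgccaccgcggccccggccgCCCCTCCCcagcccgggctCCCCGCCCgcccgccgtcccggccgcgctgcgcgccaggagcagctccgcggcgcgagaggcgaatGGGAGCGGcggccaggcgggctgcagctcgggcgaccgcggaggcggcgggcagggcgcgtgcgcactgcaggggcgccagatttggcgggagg
The Gata1 window held 3 CCNCNCCC matches and no GATA match, with the nearest match beginning 34 bases before the start. The Klf1 window held the reverse pattern, with 1 GATA match beginning 80 bases before the start, read here on the opposite strand, and no CCNCNCCC match. In the Myb window there were 3 CCNCNCCC matches, the nearest 94 bases before the start, and no GATA match. Over the 12 windows found for 8 of the 10 genes, 3 held a GATA match and 10 a CCNCNCCC match. Of all 32851 windows of this length, 26.5% held the GATA motif and 45.9% held CCNCNCCC. No window was found for Nfe2 or Lmo2.

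Levels are given as log2 of the background-corrected signal, from which the array's 75th percentile was subtracted (taken over 15150 probes detected well above background on every array). A difference of 1 is thus 2-fold, and a level can be compared between arrays but not between probes. The sorted population was checked first. The 5 markers of CD71highTer119+ erythroblasts used here (Tfrc, Alas2, Slc4a1, Epor and Ahsp) were well above background on every array, and their mean level ran only from 5.34 to 5.68. Mapk14, the gene of P38α, was not lower in the arrays labelled P38α-/-. Its brighter probe was 0.54 higher there (standard error, SE, 0.19; limma adjusted p = 0.185), and its dimmer probe differed by 0.01 (SE 0.42, limma adjusted p = 0.991). The sources used here do not say which exons lie between the loxP sites, so the probes do not check the labels, from which the directions below are taken. Between 28.9% and 53.1% of the probes on an array were well above background, with the highest share in P38α+/- replicate 1 and the lowest in replicate 1 labelled P38α-/-. Between the genotypes the median tested probe differed by -0.16, so differences are also given relative to that median. Neither of the 2 Xist probes was well above background on any of the 6 arrays. The study used mice of both sexes and the labels give none for these 6, so the part of sex in the values of X-linked Gata1 was not tested.

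Apart from Myb, the erythroid factors that could be tested differed little between the genotypes by value. Of the 10 genes, 9 had a probe that limma could test, meaning that a full genotype of 3 arrays read it well above background, and for these 9 the tested probes were well above background on all 6 arrays. With the threshold of an adjusted p of at most 0.05 and at least 2-fold, 0 of the 9 were differentially expressed by limma. Across all 14025 tested genes, 0.143% were called as higher in P38α-/- as labelled, and 0.0357% as lower. With no adjustment and p of at most 0.05 the count was also 0 of 9, against 4.83% of all genes higher and 15.2% lower. The genotypes overlapped for all 9, whereas they were fully separated at 7.31% of genes in the higher and 19.5% in the lower direction. Leaving Myb aside, the log2 differences of the other 8 lay within 0.21 of 0 in either direction, at most 1.15-fold, with SEs of 0.14 to 0.30 and limma adjusted p of 0.740 to 0.991. Their 95% confidence intervals all stayed within 2-fold, the lowest bound being -0.84 for Ldb1 and the highest 0.92 for Klf1. A smaller change of these genes, inside those intervals, was not detectable with 3 arrays a genotype. The median over the 9 factors was 0.00, beside -0.14 over all tested genes, and 8 of the 9 lay above the median probe. That count depended on the scaling. Under quantile normalization and in the authors' normalized values, Gata1, Tal1, Nfe2, Lmo2 and Ldb1 lay below the median probe, while Klf1 and Bcl11a stayed above it.

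**Figure D1:**
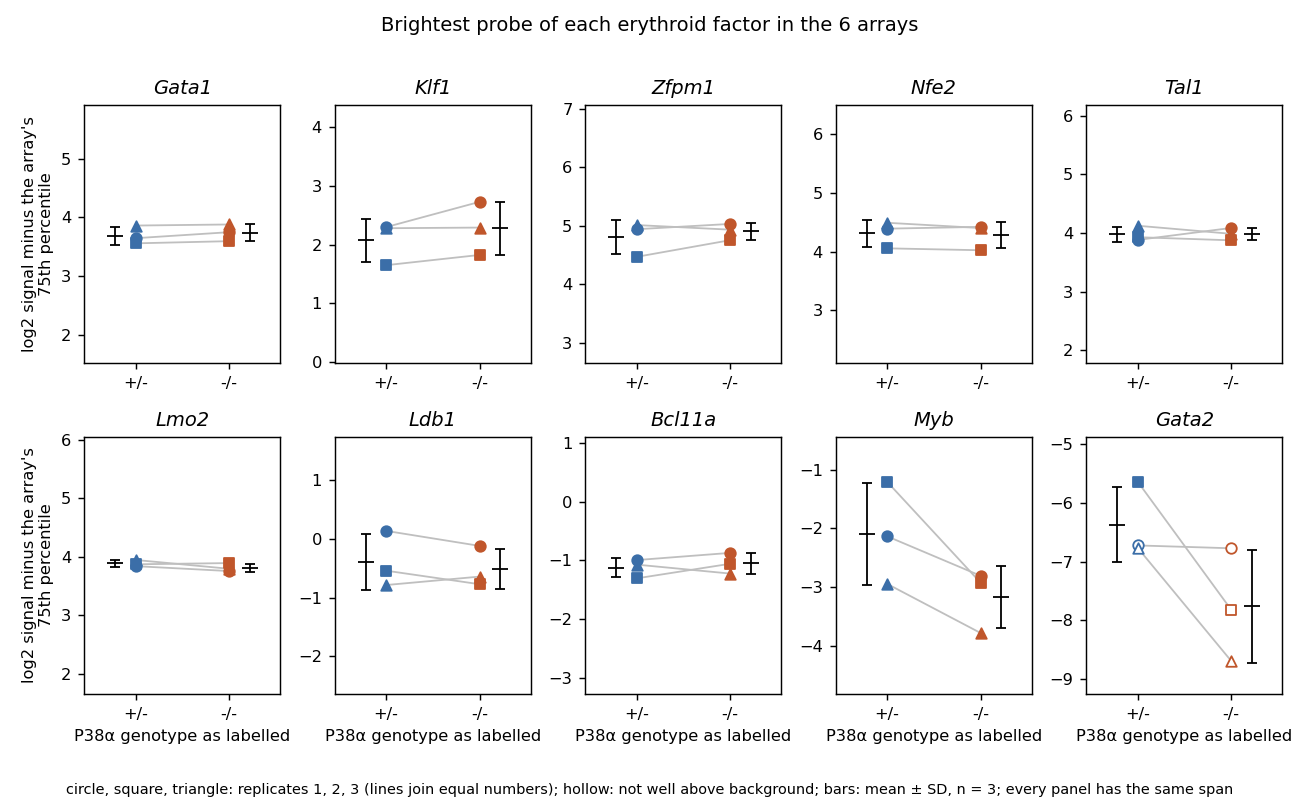
Level of the brightest probe of each of the 10 erythroid factors (y axis, log2 signal minus the array's 75th percentile) in the 3 P38α+/- and 3 P38α-/- arrays as labelled (x axis), with lines joining equal replicate numbers, hollow points for readings not well above background, and mean ± SD (n = 3). Every panel spans the same number of log2 units, so slopes can be compared: Gata1, Tal1 and Lmo2 are flat, Myb is lower in all 3 pairs (by 0.67, 1.72 and 0.84), and Gata2 was detected on P38α+/- replicate 2 only.

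Among the late factors, Gata1 itself hardly moved. The Gata1 probe (mm9 chromosome X, 7536392 to 7536451) read 3.65, 3.56 and 3.86 across P38α+/- replicates and 3.75, 3.59 and 3.88 in those labelled P38α-/-. The 6 readings span 0.32, and the order of the replicates was the same in both genotypes. Its log2 difference was 0.05 (SE 0.16, 95% interval -0.34 to 0.45, limma adjusted p = 0.886). Klf1, which encodes the activator of the adult globin and membrane genes, varied more. Its probe (chromosome 8, 87428881 to 87428940) read 2.30, 1.65 and 2.28 against 2.73, 1.82 and 2.29, so replicate 1 labelled P38α-/- was the highest of all 6 and the replicate 2 arrays were the lowest of each genotype. The log2 difference of Klf1 was 0.21 (SE 0.30, 95% interval -0.51 to 0.92, limma adjusted p = 0.740), the highest value among the 9 and well inside its spread. By pair, Klf1 differed by 0.43, 0.17 and 0.01.

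The remaining late factors gave the same picture. Zfpm1, whose product FOG1 binds GATA1, has a pair of probes on chromosome 8 that share 55 of their 60 bases and so count as one measurement. The brighter probe (124861087 to 124861146) read 4.94, 4.47 and 5.01 in P38α+/- and 5.03, 4.75 and 4.93 in P38α-/- as labelled. Its log2 difference was 0.10 (SE 0.20, limma adjusted p = 0.820), and the dimmer probe gave 0.07. Nfe2 (chromosome 15, 103078838 to 103078897) read 4.39, 4.06 and 4.49 against 4.42, 4.02 and 4.40. The replicate 2 arrays were again the lowest of each genotype, as they were for all 4 late factors, which share these arrays and their scaling. For Nfe2 the log2 difference was -0.03 (SE 0.20, limma adjusted p = 0.948). The mean level of the 4 late factors was 3.72 ± 0.25 (SD, n = 3) in P38α+/- and 3.80 ± 0.23 (SD, n = 3) in the arrays labelled P38α-/-.

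Of the complex that GATA1 joins, Tal1 and Lmo2 were the most even of all. Tal1, encoding the basic helix-loop-helix partner (chromosome 4, 114744219 to 114744278), read 3.88, 3.93 and 4.12 against 4.08, 3.87 and 3.98, with a log2 difference of 0.00 (SE 0.15, 95% interval -0.36 to 0.37). Lmo2, the LIM-only bridging protein (chromosome 2, 103821857 to 103821916), read 3.84, 3.87 and 3.95 against 3.76, 3.89 and 3.80. Its 6 readings span only 0.19, the narrowest range of the 9 tested factors, and its log2 difference was -0.07 (SE 0.14, limma adjusted p = 0.812). Ldb1, encoding the protein that dimerises to loop enhancers to promoters (chromosome 19, 46107487 to 46107546), read 0.14, -0.54 and -0.79 against -0.12, -0.77 and -0.64. Here the replicate 1 arrays were the highest of each genotype, and the range of 0.92 over the 6 arrays far exceeded the log2 difference of -0.11 (SE 0.30, limma adjusted p = 0.863).

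Bcl11a, the repressor of embryonic and fetal-type globins, was represented by 3 probes on chromosome 11, which did not behave alike in detection. The brightest (24073114 to 24073173) read -0.996, -1.31 and -1.07 in P38α+/- and -0.87, -1.06 and -1.23 in the arrays labelled P38α-/-, a log2 difference of 0.07 (SE 0.17, limma adjusted p = 0.848). The next (24068355 to 24068414) read -2.77, -2.45 and -1.91 against -2.51, -2.29 and -2.53, a log2 difference of -0.07 (SE 0.25, limma adjusted p = 0.907). These probes thus differ in sign by amounts smaller than the SE of either. The remaining probe (24074059 to 24074118) was well above background on P38α+/- replicate 1 only and was not tested.

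**Figure D2:**
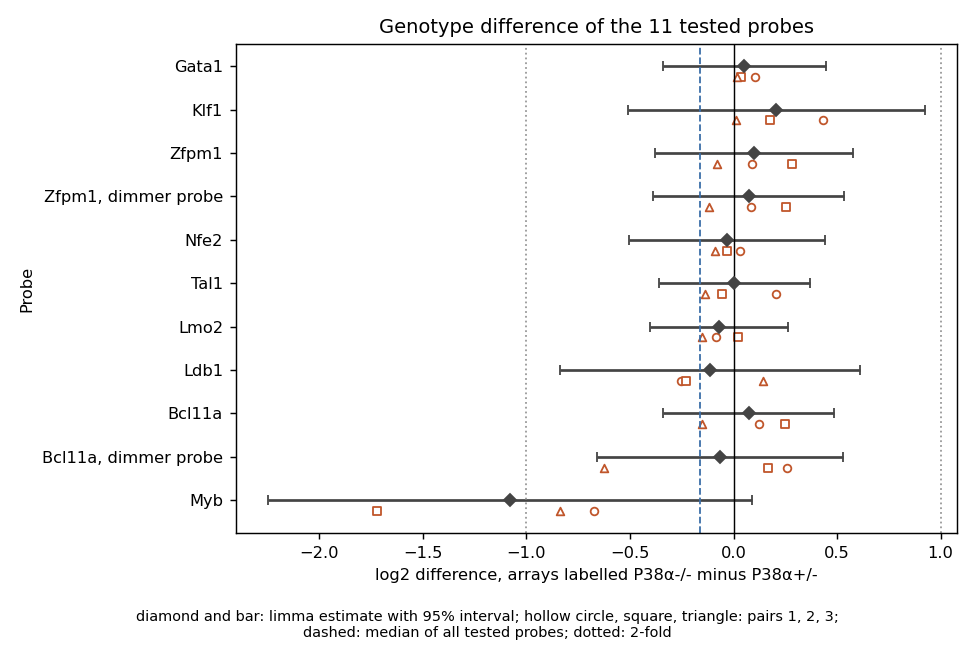
Genotype difference (x axis, log2 difference, arrays labelled P38α-/- minus P38α+/-) of the 11 tested probes of the erythroid factors (y axis), as the limma estimate with its 95% interval, with the 3 differences between equal replicate numbers below it, the median of all tested probes dashed and 2-fold dotted. The estimates of all factors but Myb lie between -0.11 and 0.21 with intervals inside 2-fold, and the estimate for Myb is -1.08 with an interval that reaches 0.09.

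Of the 9 tested factors the genotypes differed by most in Myb, the only early factor among them, without passing the threshold. Myb, which keeps progenitors cycling and is shut off as erythroblasts mature, read -2.14, -1.21 and -2.95 in P38α+/- (chromosome 10, 20844736 to 20844795). Those labelled P38α-/- had Myb at -2.81, -2.93 and -3.79. It was lower in all 3 pairs, by 0.67, 1.72 and 0.84, but the genotypes overlapped, because P38α+/- replicate 3 lay below 2 of the 3 arrays labelled P38α-/-. The log2 difference was -1.08 (SE 0.48, 95% interval -2.25 to 0.09), 2.11-fold lower, with an unadjusted p of 0.0649 and an adjusted p of 0.266 by limma, and it stood at -0.92 relative to the median probe. Without P38α+/- replicate 2 it was -0.63, and without replicate 3 labelled P38α-/- it was -0.77. With array weights it passed the threshold, at -1.87 and a limma adjusted p of 0.0362, in a range of 0.0362 to 1.00 over the alternatives tried. The weights, the same for every gene, were 3.97 for replicate 3 labelled P38α-/- and 2.13 for P38α+/- replicate 2. No other array had more than 0.77. The weighted values thus rest mostly on these arrays, which had the lowest and the highest Myb reading.

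Gata2, the progenitor GATA factor, could hardly be measured in these cells. On chromosome 6 (88156362 to 88156421), its single probe rose clear of the background on 1 of the 6 arrays, P38α+/- replicate 2, at -5.63. The other P38α+/- arrays read -6.72 and -6.76, and the arrays labelled P38α-/- read -6.77, -7.82 and -8.69, none of them well above background, where readings have no reliable order. Limma did not test the probe, and no fold is given, since the P38α+/- mean of -6.37 lay under the mean detection floor of -6.22 on the other side.

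The comparison of early with late factors therefore rests on Myb as the only early factor tested. Within each array, Myb minus the mean of the 4 late factors was -5.96, -4.64 and -6.86 in P38α+/- and -6.79, -6.48 and -7.66 in P38α-/- as labelled. The level of this balance depends on the probes and has no meaning by itself, but its change between arrays does not depend on where an array is centred. It was lower in all 3 pairs, with differences of -0.84, -1.84 and -0.80, and a mean difference of -1.16, while only 1 of the 3 arrays labelled P38α-/- lay below all P38α+/- arrays. The SD within a genotype was 1.12 in P38α+/- and 0.61 in P38α-/- as labelled, so the difference was of the size of the spread between replicates. Leaving out P38α+/- replicate 2 reduced it to -0.57, leaving out replicate 3 labelled P38α-/- reduced it to -0.82, and array weights enlarged it to -2.12. Among the late and complex factors the balance was steadier. Nfe2 minus Gata1 stayed between 0.43 and 0.75 over the 6 arrays, and Klf1 minus Gata1 between -1.91 and -1.02. Ldb1 minus Tal1 ran more widely, from -4.91 to -3.74, with pair differences of -0.46, -0.18 and 0.28.

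**Figure D3:**
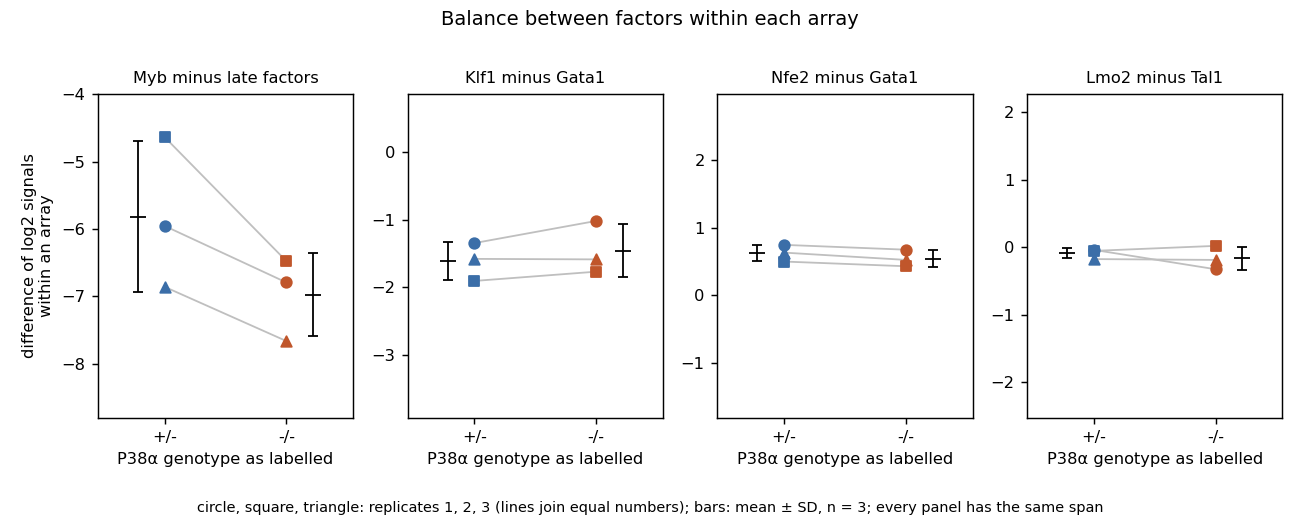
Difference of the log2 signals of factors within an array (y axis) in the P38α+/- and P38α-/- arrays as labelled (x axis), with lines joining equal replicate numbers and mean ± SD (n = 3). Myb minus the late factors is lower in all 3 pairs but overlaps between the genotypes, whereas Klf1 minus Gata1, Nfe2 minus Gata1 and Lmo2 minus Tal1 differ by 0.15, -0.08 and -0.08 in the mean.

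Markers of several other blood cell types differed in the same direction as Myb, and those of megakaryocytes did not. The erythroblasts were measured in bulk, so fewer cells of a type and less RNA per cell cannot be told apart. The mean level of the 12 neutrophil markers, all of them tested, ran from 1.53 to 3.23 in P38α+/- and from 0.52 to 1.12 in the arrays labelled P38α-/-, and 11 of the 12 were lower at an unadjusted p of at most 0.05 by limma, none past adjustment. All 12 were well above background on every array, where 11.7% of all genes were lower at that p. For the 6 of 12 B cell markers that could be tested, the range was -4.84 to -2.68 against -6.15 to -4.99. The 3 of 10 mast cell and basophil markers that could be tested ranged from -4.14 to -1.04 against -5.35 to -4.56, and Ms4a2, Cma1, Mcpt4 and Gzmb of that list were not well above background on any array. The 3 of 10 stem and progenitor markers that were tested, Cd34, Kit and Ly6a, ranged from -5.35 to -3.63 against -6.64 to -5.01, and Meis1 and Slamf1 were well above background on no array. The genotypes did not overlap in the means of the neutrophil, B cell, and mast cell and basophil lists, and overlapped in that of the progenitor list. Some genes of the last 3 lists passed the filter through P38α+/- alone and so had to read lower in the other genotype. Of the genes well above background on all 6 arrays, 0 of 4 B cell and 1 of 2 mast cell and basophil markers were lower without overlap, against 10 of 12 neutrophil markers. Over all genes so detected, 1932 of 11728 were lower without overlap. Of the other marker lists, the median log2 difference was -1.10 for 6 tested plasmacytoid dendritic cell markers, -0.97 for 8 of monocytes and macrophages and -0.63 for 4 of T and NK cells. The 5 tested megakaryocyte and platelet markers had a median of 0.33, with 4 of the 5 above the median probe. Counting only genes well above background on all 6 arrays, the median was -0.69 for 4 plasmacytoid dendritic cell markers. It was -0.91 for 5 of monocytes and macrophages and 0.28 for 4 of megakaryocytes and platelets, beside -0.08 over all genes so detected. Like Myb, the neutrophil and the mast cell lists were highest in P38α+/- replicate 2 and lowest in replicate 3 labelled P38α-/-. The latter array was the only one on its slide and with its scan date, so slide and mouse cannot be told apart there. The part of such cells in the Myb difference was not tested. By contrast, the erythroblast markers differed by -0.0065 in the mean.

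**Figure D4:**
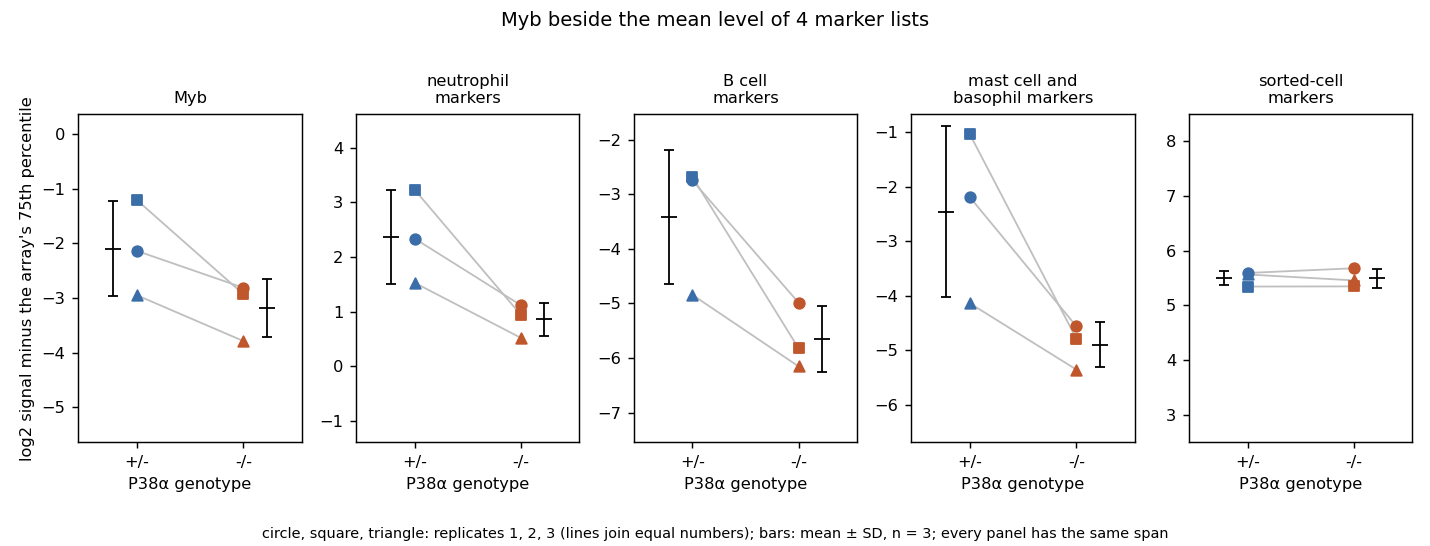
Level of Myb and mean level of the tested neutrophil, B cell, mast cell and basophil, and sorted-cell markers (y axis, log2 signal minus the array's 75th percentile) in the P38α+/- and P38α-/- arrays as labelled (x axis), with lines joining equal replicate numbers and mean ± SD (n = 3). Myb and the first 3 marker lists are lower in each of the 3 pairs, and the sorted-cell markers stay between 5.34 and 5.68. Some B cell and some mast cell and basophil markers passed the filter through P38α+/- alone and so had to read lower in the other genotype. Of the tested genes, 4 of 6 B cell and 2 of 3 mast cell and basophil markers were detected on all 6 arrays.

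The wider set of erythroid factors and cofactors, which includes partners of the 10 and other regulators, was examined next. Of 68 listed genes, 56 were tested and 0 were differentially expressed by limma, with 4 higher and 10 lower by unadjusted p (at most 0.05) and a median log2 difference of -0.15. Counting only the 52 genes well above background on all 6 arrays, 4 were higher and 7 lower, or 7.69% and 13.5%, beside 5.39% and 11.7% of all genes so detected. The highest by value among genes without overlap were Ssbp2, Cbfa2t3 and Ssbp4, while other partners of LDB1 and TAL1 on the list differed less or the other way, with Ssbp3 at -0.15, Tcf3 at 0.01 and Tcf12 at -0.46. Ssbp2, a single-stranded DNA binding protein that stabilises LDB1, read 0.42, 0.61 and 1.02 in P38α+/- and 2.04, 2.26 and 2.32 in the arrays labelled P38α-/-, with no overlap and a log2 difference of 1.53 (SE 0.20, limma adjusted p = 0.0668). Averaged over the tested probes of Ssbp2, the log2 difference was 1.13. Ssbp4, a relative of Ssbp2, read -1.43, -1.89 and -1.69 against -0.54, -0.86 and -0.68, a log2 difference of 0.98 (SE 0.18, limma adjusted p = 0.0867). Cbfa2t3, encoding the corepressor ETO2 of the TAL1 complex, read -1.45, -1.33 and -1.37 against 0.20, -0.39 and -0.04, a log2 difference of 1.31 (SE 0.19, limma adjusted p = 0.0687). The other gene higher at that unadjusted p was Mafg, the small MAF partner of NFE2, at 0.45, named here after its value was seen. All 3 of Ssbp2, Ssbp4 and Cbfa2t3 passed the threshold with the 75th percentile taken over all probes and with array weights, and Ssbp2 and Cbfa2t3 did so when only probes detected on all 6 arrays were tested. Ssbp2 also passed without P38α+/- replicate 3.

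In the other direction, the largest differences among cofactors that were detected on all arrays and did not overlap were those of Gfi1, Cbfb and Lmo4, which are also active in other blood lineages. Gfi1, a repressor best known in granulocytes and lymphoid cells, read -3.23, -1.42 and -3.07 in P38α+/- against -4.97, -3.78 and -4.56, a log2 difference of -1.87 (SE 0.55, limma adjusted p = 0.152). Cbfb, the partner of RUNX factors, gave -1.47 (SE 0.56, limma adjusted p = 0.214), and Lmo4, a relative of Lmo2, gave -1.34 (SE 0.41, limma adjusted p = 0.157). Without P38α+/- replicate 2 the log2 differences of Gfi1, Cbfb and Lmo4 were -1.29, -0.86 and -0.86, and with the normexp background they were -1.10, -0.94 and -0.91. With array weights all 3 passed the threshold, at limma adjusted p of 0.0233, 0.0332 and 0.0243, while the other alternatives gave up to 1.00. For each of these 3, P38α+/- replicate 2 was the highest of all 6 arrays, as it was for Myb and for the neutrophil markers, whose part in these differences was not tested. Klf3 and Nfe2l1, named here after their values were seen, were also lower without overlap, by less but with lower adjusted p. Klf3 gave -0.73 (SE 0.15, limma adjusted p = 0.0988) and was highest in P38α+/- replicate 3. Nfe2l1 gave -1.09 (SE 0.24, limma adjusted p = 0.105) and was highest in P38α+/- replicate 1.

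Genes that GATA1 and KLF1 induce differed little as a list. Of 49 listed targets, 48 were tested, 0 were differentially expressed by limma, and 2 were higher and 1 lower at an unadjusted p of at most 0.05. For the 47 detected on all arrays these were 4.26% and 2.13%, beside 5.39% and 11.7% of all genes so detected. The median log2 difference was 0.01, and the mean level of the 48 genes was 3.0996 ± 0.118 (SD, n = 3) in P38α+/- and 3.1052 ± 0.047 (SD, n = 3) in the arrays labelled P38α-/-. The genotypes were separated without overlap for 5 genes in the higher and 4 in the lower direction, beside 7.31% and 19.5% of all tested genes. That split depended on the scaling, with 15 higher and 0 lower for the 75th percentile over all probes and 0 in either direction for the spike-in centring. Leaving out 1 array can only keep or raise such counts, so no effect of a single array is read from them. The higher count became 13 without P38α+/- replicate 3 and 8 without replicate 2 labelled P38α-/-. The lower count became 7 without P38α+/- replicate 2 and 8 without replicate 1 labelled P38α-/-. Pklr, the red cell pyruvate kinase and a KLF1 target, had a log2 difference of 0.77 (SE 0.17, limma adjusted p = 0.104), from -4.05, -4.38 and -4.07 in P38α+/- to -3.32, -3.33 and -3.54. For this dim probe the value was 0.43 with the normexp background and 1.28 under quantile normalization. Trim58, a ubiquitin ligase of enucleating erythroblasts, gave 0.51 and Hebp1, a heme-binding protein, gave 0.30. On the other side, Xk, which encodes the Kell-associated membrane protein, gave -0.86 (SE 0.24, limma adjusted p = 0.142), Car1, a carbonic anhydrase, gave -0.35 and Ermap, an erythroid membrane protein, gave -0.21, the last 2 turning positive under the percentile over all probes and the spike-in centring.

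Genes known to be silenced as GATA1 replaces GATA2 were lower by value. Of 20 listed, 13 were tested and 0 were differentially expressed by limma, with 8 lower and 0 higher by unadjusted p (at most 0.05) and a median log2 difference of -1.33. Some of the 13 passed the filter through P38α+/- alone and so had to read lower in the other genotype. Among the 9 detected well above background on all 6 arrays, 5 were lower at that p and the median was -0.63, beside 11.7% and -0.08 over all genes so detected. Vim, encoding the intermediate filament vimentin, read -1.47, -1.06 and -2.29 in P38α+/- and -2.90, -2.77 and -3.15 in the arrays labelled P38α-/-, a log2 difference of -1.33 (SE 0.33, limma adjusted p = 0.121). Emb, the adhesion protein embigin, gave -1.91 and Hdc, the histamine-forming enzyme of basophils and mast cells, gave -1.72, both without overlap and with limma adjusted p of 0.131 and 0.139. Blocking on replicate number made 2 genes of this list differentially expressed, Kit and Cd34, both lower and with a limma adjusted p of 0.0462. Kit was well above background on 2 and Cd34 on 1 of the 3 arrays labelled P38α-/-, so both passed the filter through P38α+/- alone. Of the 20 genes, 6 are also on the stem and progenitor marker list and 2, Hdc and Cpa3, on the mast cell and basophil list. The list followed the same arrays as the neutrophil markers, and the part of other cell types in it was not tested.

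**Figure D5:**
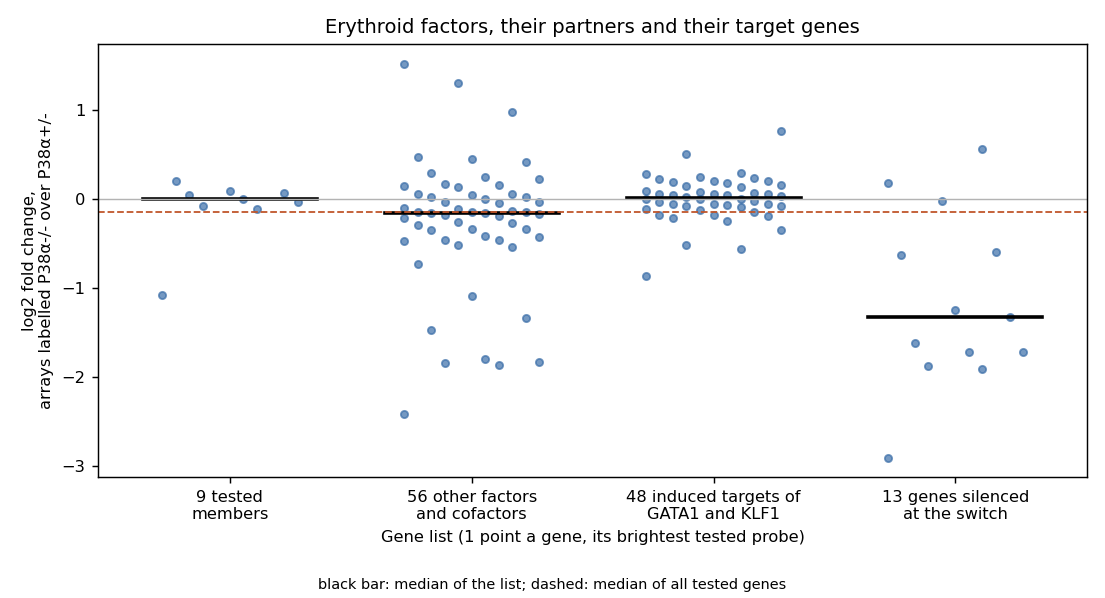
Log2 difference (y axis, arrays labelled P38α-/- over P38α+/-) of each tested gene of 4 lists (x axis), 1 point a gene by its brightest tested probe, with the list's median as a black bar and the median of all tested genes dashed. The medians are 0.00 for the 9 tested erythroid factors, -0.15 for 56 other factors and cofactors, 0.01 for 48 induced targets and -1.33 for 13 genes silenced at the GATA switch. Of these 13, some passed the filter through P38α+/- alone and so had to read lower in the other genotype. For the 9 of them well above background on every array the median was -0.63, beside -0.08 over all genes so detected.

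Among 11727 other genes well above background on all 6 arrays, Ccdc22 and Zc3h18 were among those whose readings ran most like those of Gata1. Their Pearson correlations with Gata1 were 0.989 and 0.988, over 6 points that share their arrays and their scaling, and over a Gata1 range of only 0.32. Ccdc22 encodes a part of an endosomal sorting complex, and Zc3h18 a nuclear RNA-processing factor. No such genes are given for Gata2, which was well above background on only 1 of the 6 arrays.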

How the data were processed

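Total RNA (10 ng for each of 6 erythroblast samples) was amplified, labelled with Cy3 and hybridised, with 1 array for each mouse. The authors deposited spot intensity as Agilent Feature Extraction 10.7.3.1 wrote it, with background subtracted in each array and no scaling between arrays. A table of normalized intensity values was also deposited, with its steps not given in the sources used here. For P38α-/- replicate 2, that table and the scanner signal gave a Spearman correlation of 0.898, beside 1.00 for the other arrays. Probe coordinates are as the array files give them, on mm9, and gene annotation of that build was not used here. Sample labels gave the groups and replicate numbers, and 0 columns stayed unassigned.

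Spots of controls and outlier-marked spots were removed, the spots of each probe were averaged, and none was saturated. After log2 transformation, the 75th percentile over 15150 probes was taken off each array. Testing used limma 3.58.1 under R 4.3.3, by linear models with empirical Bayes moderation and two-sided p-values, on 18547 probes covering 14025 genes. P-values were adjusted by Benjamini-Hochberg, and a gene was read by its brightest tested probe. The procedure was checked on simulated data. The number of arrays limits the precision.

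The 10 factors and every gene list were chosen with earlier results of these data known. Named list genes were the 3 largest rises and 3 largest falls among genes detected on all arrays with no overlap between genotypes. For equal replicate numbers, the arrays' deviations from their genotype's mean had correlations of 0.537, 0.310 and 0.423, and the study's design speaks of pairs of mice, so the numbers were taken to pair the samples. The main comparison is unpaired, as in the study's methods. Alternatives were other scalings and backgrounds, other filters, the authors' values, blocks for replicate number and for slide (the latter equals leaving out P38α-/- replicate 3), array weights, the methods' t-test, averaging the probes of a gene, and each array left out. Some genes of the lists are not reported here.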

Additional observations from a re-analysis of the deposited data

How the results depend on the processing

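Of 196 alternative values for the tested probes of the erythroid factors, 162 kept the direction and the side of the threshold, 33 changed direction and 1 passed the threshold. The 33 concern factors whose log2 difference lay within 0.12 of 0, and Klf1. The scalings shift all genes together, with a median tested probe of 0.32 for the 75th percentile over all probes, 0.20 for centring on the spike-in spots, 0.06 for quantile normalization and for the authors' values, and -0.09 for the normexp background. Under the 75th percentile over all probes and the spike-in centring, in that order, the log2 difference became 0.45 and 0.32 for Nfe2, 0.41 and 0.28 for Lmo2, 0.37 and 0.24 for Ldb1, 0.42 and 0.29 for the dimmer Bcl11a probe, 0.14 and 0.0044 for Car1, and 0.27 and 0.14 for Ermap. Relative to the median probe, the range over the scalings and array weights was -0.09 to 0.29 for Nfe2, -0.18 to 0.09 for Lmo2, -0.18 to 0.05 for Ldb1, -0.03 to 0.33 for Gata1, 0.09 to 0.52 for Klf1 and -1.73 to -0.71 for Myb. Quantile normalization, normexp and the authors' values gave -0.0089, -0.0053 and -0.0229 for Tal1. The dimmer Bcl11a probe became 0.16 under quantile normalization and 0.19 in the authors' values. Nfe2 became 0.0268 with normexp and 0.15 with array weights, and Gata1 became -0.0168 with the slide as a block. With array weights 1 factor, Myb, was called, and the early minus late change moved to -2.12. Called genes among the 56 other factors and cofactors numbered 4 with the 75th percentile over all probes, 2 with the stricter filter and 9 with array weights. Among induced targets 1 gene was called with the 75th percentile over all probes, and among genes silenced at the switch 2 with that percentile, 2 with the replicate block and 8 with array weights. The replicate block changed no other call of the named results, and gave Myb an adjusted p of 0.103. The methods' t-test with Benjamini-Hochberg adjustment also called 0 of the 9 factors. The causes were not tested.

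Leaving out 1 array at a time, the log2 difference ran from -0.0168 to 0.14 for Gata1, from -0.0186 to 0.43 for Klf1, from -0.0474 to 0.0772 for Tal1, from -0.0702 to 0.20 for Zfpm1 and from -0.0833 to 0.18 for its dimmer probe. It ran from -0.16 to 0.10 for Nfe2, from -0.31 to 0.15 for Ldb1, from -0.0181 to 0.16 for Bcl11a and from -0.26 to 0.17 for its dimmer probe. Myb ran from -1.50 to -0.63 and the early minus late change from -1.68 to -0.57. The factors called stayed at 0, and the other factors and cofactors, and the genes silenced at the switch, gave 0 to 1 call each, the 1 call arising without P38α+/- replicate 3. Gata2 and a Bcl11a probe were limited by signal over background.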
